A study of Mus musculus with 2 samples.

Results

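Cxcl9, Cxcl10, Cxcl16, Cxcr3 and Cxcr6, the chemokines and receptors that draw T cells into tumours, were followed through the leukocytes of B16-F10 melanomas. The 5 genes were chosen by symbol, as 5 of the 32432 genes counted, and all 5 were found in each of the 8 count tables (Cxcl9 ENSMUSG00000029417, Cxcl10 ENSMUSG00000034855, Cxcl16 ENSMUSG00000018920, Cxcr3 ENSMUSG00000050232 and Cxcr6 ENSMUSG00000048521). CXCL9 and CXCL10 are secreted chemokines that both bind CXCR3, a receptor of activated T cells and NK cells. Interferon gamma induces both, and Cxcl10 also responds directly to type I interferon. CXCL16 is made as a membrane-bound protein, is released by the protease ADAM10, and is the ligand of CXCR6, a receptor of effector and tissue-resident T cells. In tumours, macrophages and dendritic cells are known sources of all the ligands.

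The study compared male mice aged 8 to 12 weeks that carried the tamoxifen-inducible Cre R26CreERT2 (ki/wt) and either Trex1 fl/fl (Trex1 iKO) or Trex1 fl/wt (Trex1 control). Control mice thus kept 1 unfloxed Trex1 allele and carried the same Cre. Trex1 encodes an exonuclease that degrades DNA in the cytosol, where DNA otherwise triggers type I interferon through cGAS and STING. All mice received 1000 B16-F10 cells, an established mouse melanoma line, in Matrigel into the skin of both legs on day 0 and 1 mg tamoxifen on each of 3 days from day 5. Tumours were taken on day 14, and live CD45+ cells were enriched on beads, sorted and sequenced from the 3' end (10x Genomics). R26CreERT2 is not limited to a cell type, so the allele was targeted in host cells of any kind, and the injected melanoma cells do not carry it. Each genotype had 4 hashtagged samples run as 1 pool, and an effect of the pool and one of the genotype cannot be told apart. The labels do not say that each hashtag is 1 mouse, so p-values measure only the spread between these samples.

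After filtering, 22052 of 23731 barcodes remained, with 1294 to 5722 cells per iKO sample and 1697 to 2710 per control sample. Total counts of unique transcript molecules (UMIs) were 19370674 to 96457227 in the iKO samples and 17111065 to 33319752 in the control samples. The median per cell was 12535.5 to 14221 UMIs in the iKO samples and 5794 to 11490 UMIs in the control samples. Genotypes are therefore compared below by UMIs of a gene per 1000000 UMIs of the cells summed (CPM) or, for shares of cells, after every cell was thinned to 2000 UMIs. Trex1 itself held 2 UMIs in control sample 2 and 0 in each other sample, too few to check the genotype. Across pools 45 barcode sequences were shared, and none within a pool. The labels call the cells lymphocytes, but monocyte/macrophage-like cells made up 23.5% to 55.1% of the cells of a sample, and the T cell classes differed widely in size. CD8 T-like cells numbered 1149, 2214, 65 and 79 across iKO samples 1 to 4 and 305, 123, 110 and 53 across control samples 1 to 4. The level of a receptor in iKO samples 3 and 4 and in control sample 4 thus rested on few cells. A further 3 clusters of T cells are called by a leading gene: Gzmk (a granzyme), Klra7 (an NK receptor of the Ly49 family) and Tcf7 (a transcription factor of naive and memory T cells). Cd8a was found in 87.1% of the cells led by Gzmk, which are not part of the CD8 T-like class, and in 24.3% and 55.8% of those led by Klra7 and Tcf7.

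The stretches before the start sites of Cxcl9 and Cxcl10 are shown because these neighbouring genes share a receptor. Whether the genotype effects on the 2 genes differ from each other was not tested. The RefSeq table (GRCm38.p6, an older build than the GRCm39 of the counts) held 4 of the 5 genes, Cxcl9, Cxcl10, Cxcr3 and Cxcr6. Each sequence below is the 250 bases before the start, 5′ to 3′ on the gene's own (minus) strand, and capitals mark matches to the motifs searched.
Cxcl9, chr5:92328080-92328329: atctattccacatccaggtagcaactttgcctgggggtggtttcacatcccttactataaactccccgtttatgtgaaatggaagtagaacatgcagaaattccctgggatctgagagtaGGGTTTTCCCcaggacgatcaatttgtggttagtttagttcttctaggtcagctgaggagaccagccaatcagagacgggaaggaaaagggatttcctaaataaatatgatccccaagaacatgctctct
Cxcl10, chr5:92348890-92349139: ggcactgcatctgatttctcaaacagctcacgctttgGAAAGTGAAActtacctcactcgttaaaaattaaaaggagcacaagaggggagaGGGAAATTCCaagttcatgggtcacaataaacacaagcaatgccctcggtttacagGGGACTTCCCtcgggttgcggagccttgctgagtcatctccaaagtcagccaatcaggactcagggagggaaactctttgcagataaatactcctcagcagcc
Motifs were searched on both strands over 250 bases before to 50 after the start. The interferon-stimulated response element (GAAA, any 2 bases, GAAA), the site of the factor that type I interferon activates, was found in 3.44% of 32851 promoters. It stood once before Cxcl10, at 213 to 204 bases before the start, and was not among the letters of the Cxcl9 window. The kappaB motif (GGGA, any 4 bases, CC), common at 20.7% of promoters, stood at 159 to 150 and at 103 to 94 bases before Cxcl10 and at 130 to 121 bases before Cxcl9, there on the reverse strand. None of the motif matches overlapped another. The gamma-activated site (TTC, any 3 bases, GAA; 8.30% of promoters) had no match before any of the 4 genes, and Cxcr3 and Cxcr6 had none of the 3 motifs.

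Over all cells of a sample, Cxcl10 was higher in every iKO sample than in any control sample, while the other 4 genes overlapped between genotypes. Cxcl10 stood at 949, 766, 399 and 360.4 CPM across iKO samples 1 to 4 and 292, 178, 137 and 178 CPM across control samples 1 to 4. The lowest iKO sample lay above the highest control sample, as it did for 8.41% of the 13459 genes tested. The log2 fold change of iKO over control was 1.65 ± 0.36 (SE), with an adjusted p of 0.0557 in edgeR's quasi-likelihood test with Benjamini-Hochberg adjustment over all genes, which also holds for every adjusted p below unless another test is named. None of the 5 genes passed the threshold of 0.05 here, against 2.53% of all genes. Of the 5, 1, Cxcl10, had an unadjusted p under 0.05. DESeq2 called it too, as it did 1381 of the 13459 genes. Same-numbered samples of the 2 genotypes deviated together in this profile (correlations 0.14 to 0.53). Some samples of unlike number did so as well, such as iKO sample 2 and control sample 1 (0.58), and the labels do not pair samples. With the sample number as a block Cxcl10 had a log2 fold change of 1.59 and an adjusted p of 0.00908.

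Cxcl9 stood at 518, 314, 177 and 131 CPM across iKO samples 1 to 4 and 336, 154, 56.6 and 182 CPM across control samples 1 to 4 over all cells, with control sample 1 above iKO samples 2, 3 and 4 and a log2 fold change of 0.64 ± 0.57 (SE; adjusted p = 0.541). Cxcl16 had a log2 fold change of 0.30 ± 0.13 (SE; adjusted p = 0.233) and Cxcr3 one of -0.08 ± 0.29 (SE; adjusted p = 0.901). Cxcr6 spanned 43.6 to 285 CPM in the iKO samples and 20.2 to 130.3 CPM in the control samples (log2 fold change 1.11 ± 0.72, SE; adjusted p = 0.396). Its 2 highest samples, iKO 1 and 2, were also those with the most CD8 T-like cells, 30.3% and 38.7% of their cells. In these summed counts a larger share of a cell type and more RNA per cell cannot be told apart, so each gene was next read within cell classes.

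**Figure D1:**
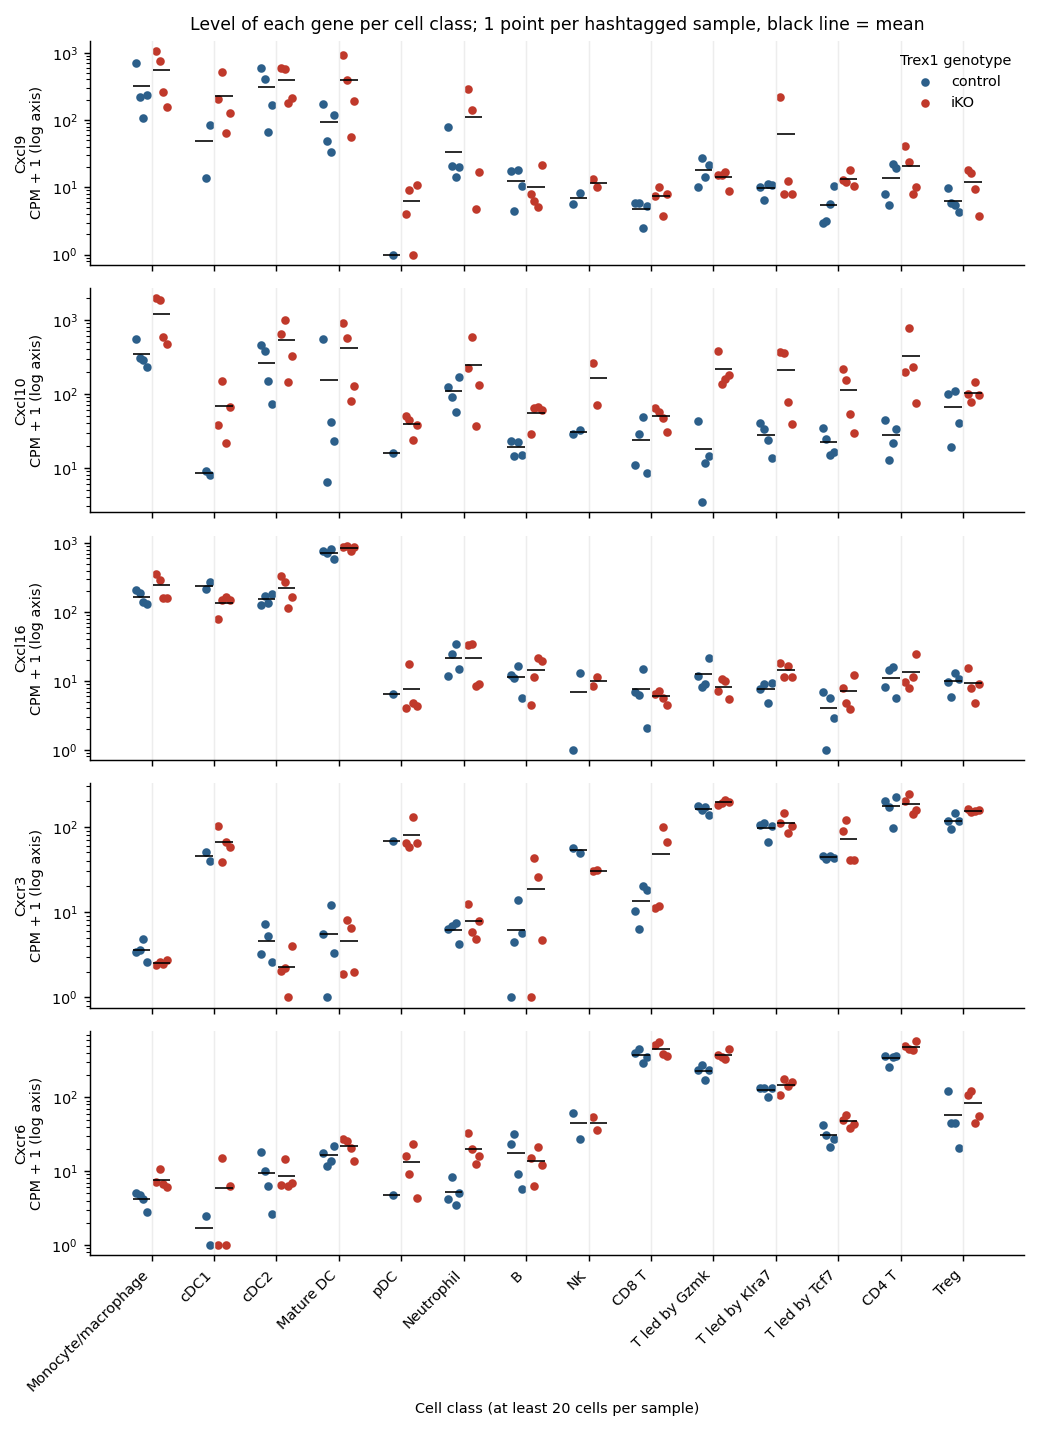
Levels of the 5 genes by cell class, in CPM on a log scale, with 1 point per hashtagged sample, iKO and control in separate colours. Ligands were highest in monocyte/macrophage-like and dendritic classes, receptors in T cell classes, and the mean Cxcl10 level was higher in iKO than in control in every class, with overlapping points in several.

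Cxcl9 came from monocyte/macrophage-like and dendritic cells, and its level did not separate the genotypes. Over all 8 samples its mean level was 438 ± 353 CPM (SD, n = 8) in monocyte/macrophage-like cells, 350.0 ± 220.0 CPM in cDC2-like cells (conventional type 2 dendritic cells) and 240.5 ± 295 CPM in mature DC-like cells (Ccr7+ dendritic cells). The first pair did not differ beyond the spread over samples (higher in 6 of 8, exact sign-flip permutation p = 0.305, adjusted 0.541). cDC2-like cells were above mature DC-like cells in 7 of 8 samples (exact p = 0.0391, adjusted 0.179 over 55 such pairs). Below these came cDC1-like cells (cross-presenting dendritic cells; 168 ± 184 CPM, n = 6) and neutrophil-like cells (71.9 ± 98.5 CPM, n = 8), and B-like and CD8 T-like cells stood at 10.4 and 5.07 CPM. In T cells led by Klra7, Cxcl9 reached 217 CPM in iKO sample 1, where 1 cell held 92.2% of the class's 77 Cxcl9 UMIs.

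In monocyte/macrophage-like cells Cxcl9 stood at 1062, 749.7, 261 and 153 CPM across iKO samples 1 to 4 and 712, 219, 107 and 236 CPM across control samples 1 to 4. Sample 1 was the highest of each genotype, iKO sample 4 was below 3 of the control samples, and the groups overlapped. The log2 fold change was 0.81 ± 0.70 (SE; adjusted p = 0.48; 95% interval -0.56 to 2.18). Mature DC-like cells gave the widest difference of this gene, 908, 398, 55.1 and 192 CPM across iKO samples 1 to 4 and 171, 47.6, 32.3 and 119.6 CPM across control samples 1 to 4. Here 3 iKO samples exceeded every control sample and iKO sample 3 did not, with a log2 fold change of 2.12 ± 0.69 (SE; adjusted p = 0.258). cDC2-like cells had a log2 fold change of 0.38 ± 0.58 (SE; adjusted p = 0.77) and neutrophil-like cells one of 1.66 ± 0.86 (SE; adjusted p = 0.561). Cxcl9 thus passed the test in 0 of the 4 classes where it was tested, by edgeR and by DESeq2, with 1 of the 4, mature DC-like cells, at an unadjusted p under 0.05.

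Cxcl10 rose in the monocyte/macrophage-like cells of iKO tumours, which held most of its UMIs. It stood at 1955, 1849, 594 and 479.5 CPM across iKO samples 1 to 4 and 556, 309, 283 and 233 CPM across control samples 1 to 4. Samples iKO 1 and 2 were highest, iKO sample 3 was just above control sample 1, and iKO sample 4 was below control sample 1, so the groups overlapped. The log2 fold change was 1.83 ± 0.51 (SE; adjusted p = 0.0493), and Cxcl10 was the 1 gene of the 5 that passed in this class, where 10.9% of 11796 genes did. That call held in 3 of 8 fits that left out a sample and was lost without iKO sample 1, iKO sample 2, control sample 2, control sample 3 or control sample 4, with log2 fold changes of 1.48 to 2.16 and adjusted p of 0.0245 to 0.129. By share of cells with a UMI after thinning, the groups did not overlap: 44.5, 40.4, 18.5 and 17.4% of cells across iKO samples 1 to 4 against 15.2, 8.35, 8.80 and 9.46% across control samples 1 to 4. The closest pair was iKO sample 4, with a 95% Wilson interval of 15.5% to 19.5%, and control sample 1, with 12.5% to 18.3%; these intervals cover counting error only. The exact permutation p was 0.0286, the smallest that 4 against 4 samples allow, or 0.107 adjusted over 30 such tests, and 9.90% of genes in this class separated the groups in this direction. Before thinning the shares were 44.8% to 68.6% in the iKO samples and 21.4% to 30.2% in the control samples.

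The order of Cxcl10 over classes began with monocyte/macrophage-like cells (782 ± 704 CPM, SD, n = 8), above cDC2-like cells (398 ± 312 CPM) in 7 of 8 samples (exact sign-flip permutation p = 0.0234, adjusted 0.156). Mature DC-like cells followed at 288 ± 342 CPM (cDC2-like above in 6 of 8, exact p = 0.0312, adjusted 0.156) and did not differ beyond the spread from neutrophil-like cells at 176 ± 177 CPM (exact p = 0.727). Below them, from CD4 T-like to CD8 T-like cells, no neighbouring pair differed beyond the spread between samples.

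In cDC2-like cells Cxcl10 stood at 641, 1015, 145 and 327 CPM across iKO samples 1 to 4 and 463, 375, 147 and 73.1 CPM across control samples 1 to 4. Sample iKO 3 was below 3 control samples, and the log2 fold change was 1.05 ± 0.60 (SE; adjusted p = 0.373). Same-numbered samples deviated together in this class too, as did some of unlike number, such as iKO sample 2 and control sample 1 (correlation 0.25). With the sample number as a block the adjusted p was 0.0423 at a log2 fold change of 1.03. Mature DC-like cells stood at 915, 569, 78.6 and 129 CPM across iKO samples 1 to 4 and 548, 5.41, 40.2 and 21.9 CPM across control samples 1 to 4, with control sample 1 far above the other control samples, and the difference did not pass (log2 fold change 1.59 ± 1.06, SE; adjusted p = 0.585). Neutrophil-like cells had a log2 fold change of 1.21 ± 0.57 (SE; adjusted p = 0.523). None of the 4 tested genes passed in cDC2-like cells (2.86% of all genes did; 0 of the 4 at an unadjusted p under 0.05, and 0 by DESeq2) or in mature DC-like cells (0.0416% of all genes; 2 of the 4 at an unadjusted p under 0.05, and 0 by DESeq2). The share of thinned cells with a Cxcl10 UMI was 14.3% to 27.8% against 5.04% to 11.4% in cDC2-like cells, 7.5% to 23.5% against 2.33% to 6.52% in mature DC-like cells and 7.69% to 21.5% against 4.84% to 7.09% in neutrophil-like cells. In each of the 3 classes every iKO sample exceeded every control sample (exact permutation p = 0.0286, adjusted 0.107), which 2.98%, 2.03% and 2.40% of their genes also did.

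The Cxcl16 level was highest in mature DC-like cells of every sample, while the mean levels of Cxcl9 and Cxcl10 were highest in monocyte/macrophage-like cells. Monocyte/macrophage-like cells still held most Cxcl16 UMIs, on average 72.2% in the iKO and 57.0% in the control samples. Cxcl16 did not differ between genotypes by the test. Mature DC-like cells stood at 862, 904, 761 and 875 CPM across iKO samples 1 to 4 and 764, 713, 808 and 594 CPM across control samples 1 to 4. All 8 samples lay within a narrow range, with 3 iKO samples above the highest control sample and a log2 fold change of 0.28 ± 0.10 (SE; adjusted p = 0.299; 95% interval 0.09 to 0.48). The mean of 785 ± 101 CPM (SD, n = 8) exceeded that of monocyte/macrophage-like cells, 205 ± 81.5 CPM, in 8 of 8 samples by 2.01 on the log2 scale (exact sign-flip permutation p = 0.00781, the smallest that 8 samples allow, adjusted 0.0859). Monocyte/macrophage-like, cDC2-like (187 CPM) and cDC1-like cells (169.8 CPM, n = 6) did not differ beyond the spread (exact p = 0.273 and 0.719), and neutrophil-like cells were lower at 20.3 ± 11.6 CPM. After thinning, 70% to 77.0% of mature DC-like cells in the iKO samples and 63.3% to 80.4% in the control samples had a Cxcl16 UMI.

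In monocyte/macrophage-like cells Cxcl16 stood at 359, 295, 159 and 159 CPM across iKO samples 1 to 4 and 211, 188, 138 and 129 CPM across control samples 1 to 4, highest in iKO samples 1 and 2 and overlapping between genotypes (log2 fold change 0.54 ± 0.31, SE; adjusted p = 0.28). In cDC2-like cells the log2 fold change was 0.55 ± 0.28 (SE; adjusted p = 0.327) and in neutrophil-like cells 0.13 ± 0.46 (SE; adjusted p = 0.959). Cxcl16 passed in 0 of 5 classes tested by edgeR, and 0 by DESeq2, with 1 of 5 at an unadjusted p under 0.05, mature DC-like cells. cDC1-like cells had profiles in 2 control samples only and were not tested: Cxcl16 stood at 77.6, 151, 163 and 147 CPM across iKO samples 1 to 4 and 213 and 268 CPM in control samples 3 and 4.

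**Figure D2:**
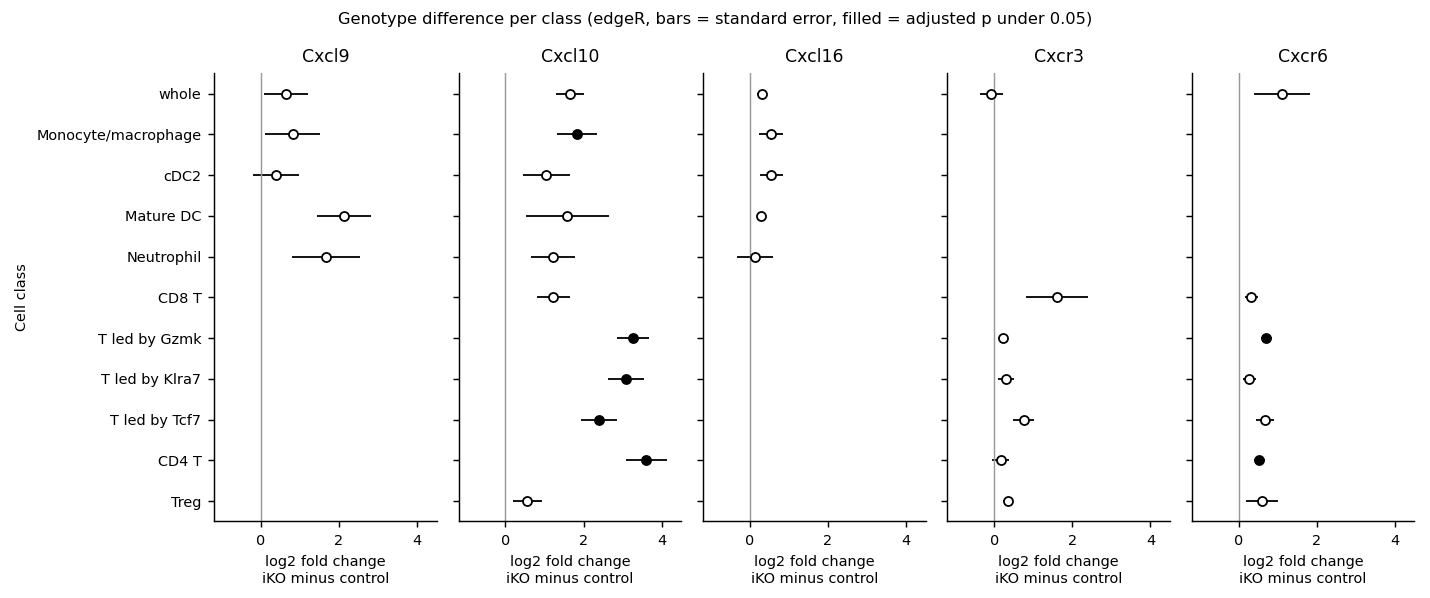
Log2 fold change of iKO over control for the 5 genes, over all cells and in chosen classes, with bars of the standard error. Filled points have an adjusted p under 0.05. Ligands are drawn in monocyte/macrophage-like, cDC2-like, mature DC-like and neutrophil-like cells, Cxcl10 also in T cell classes, and receptors in T cell classes. The changes of Cxcl10 lie at or above 0.56 in all 10 classes, and those of Cxcr3 in T cell classes lie above 0 with none past the threshold.

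Cxcl10 UMIs also appeared in T cells, and there too the gene rose in iKO samples, in 4 of 6 classes. In T cells led by Gzmk it stood at 383, 133, 158 and 179 CPM across iKO samples 1 to 4 and 41.7, 2.42, 10.6 and 13.5 CPM across control samples 1 to 4, with no overlap between genotypes, as for 5.65% of genes in this class (log2 fold change 3.26 ± 0.41, SE; adjusted p = 3.85e-05). CD4 T-like cells stood at 197, 782, 230.0 and 74.8 CPM across iKO samples 1 to 4 and 43.8, 11.8, 20.4 and 32.2 CPM across control samples 1 to 4, again with no overlap, as for 4.91% of genes (log2 fold change 3.61 ± 0.53, SE; adjusted p = 0.000135). It also rose in T cells led by Klra7 (log2 fold change 3.09 ± 0.45, SE; adjusted p = 0.000218) and by Tcf7 (2.40 ± 0.46, SE; adjusted p = 0.00388). Treg-like cells (0.56 ± 0.37, SE; adjusted p = 0.523) and CD8 T-like cells (1.22 ± 0.43, SE; adjusted p = 0.113) did not pass. Cxcl10 thus passed in 4 of 6 T cell classes, where 4.44% (Gzmk), 3.10% (CD4), 2.00% (Klra7) and 2.24% (Tcf7) of all genes did, and in 5 of the 10 classes where it was tested. Whether these effects differ from that in monocyte/macrophage-like cells was not tested.

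A few cells held much of this signal. Cells with 10 or more Cxcl10 UMIs numbered 9 of 266 CD4 T-like cells in the iKO samples and 0 of 550 in the control samples, and 1 cell of iKO sample 2 held 240 UMIs. In T cells led by Gzmk they numbered 11 of 486 in the iKO samples and 1 of 274 in the control samples, and among CD8 T-like cells 58 of 3507 and 4 of 591. They were 7 of 183 and 2 of 488 in T cells led by Klra7 and 7 of 267 and 0 of 321 in those led by Tcf7. Treg-like cells had 9 of 554 in the iKO samples and 6 of 336 in the control samples. Without such cells, a setting added after the data were seen, the log2 fold change was 2.27 in T cells led by Gzmk (adjusted p = 0.000154), 1.52 in CD4 T-like cells (0.0036), 1.80 in those led by Klra7 (0.000258) and 1.13 in those led by Tcf7 (0.0483). In the same setting it was 1.57 in Treg-like cells (adjusted p = 0.00772) and 1.39 in CD8 T-like cells (0.0167). All 6 T cell classes passed in that setting, which removes cells by the gene measured. The call in T cells led by Gzmk, Klra7 and Tcf7 and in CD4 T-like cells was kept in each alternative in which Cxcl10 was tested there, leaving out each sample included, with the lowest log2 fold changes at 2.27, 1.80, 1.13 and 1.52. In thinned T cells led by Tcf7 it was too low to be tested, and at Leiden resolution 1 no class led by Klra7 was formed.

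The share of cells with a UMI was less moved by such cells. After thinning, 11.8% to 23.2% of T cells led by Gzmk in the iKO samples and 0% to 3.96% in the control samples had a Cxcl10 UMI, where the 0 of 24 cells in control sample 4 allows a share of up to 12.5%. The groups also did not overlap in T cells led by Klra7 (8.82% to 18.4% against 1.90% to 7.30%), in those led by Tcf7 (7.5% to 19.0% against 1.10% to 5.19%) and in Treg-like cells (10.7% to 17.7% against 4.48% to 8.20%). Each of these 4 comparisons had an exact permutation p of 0.0286 (adjusted 0.107), and 3.27%, 2.32%, 2.62% and 3.20% of genes in the 4 classes separated the groups in this direction. CD4 T-like cells (8.16% to 20.0% against 3.94% to 10.3%, exact p = 0.0571) and CD8 T-like cells (1.28% to 8.80% against 1.92% to 3.74%, exact p = 0.143) overlapped between genotypes. B-like cells, taken as a class in which little of this gene is made, had shares of 2.78% to 15.9% in the iKO samples and 3.92% to 7.5% in the control samples, at median depths of 4842.5 and 3791 UMIs before thinning. T cells led by Gzmk had median depths of 6681.5 and 5278.5 UMIs. The T cell shares in the iKO samples therefore overlap those of B-like cells, and in B-like cells no cell had 10 or more UMIs. B-like cells held 28.0 to 65.2 CPM in the iKO samples and 13.6 to 22.4 CPM in the control samples, again without overlap, as for 3.96% of genes. That level was too low for the main test, and with no filter on low counts Cxcl10 passed in B-like cells (log2 fold change 1.43, adjusted p = 0.00132), as in each of the 5 fits that left out a sample and could test it.

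**Figure D3:**
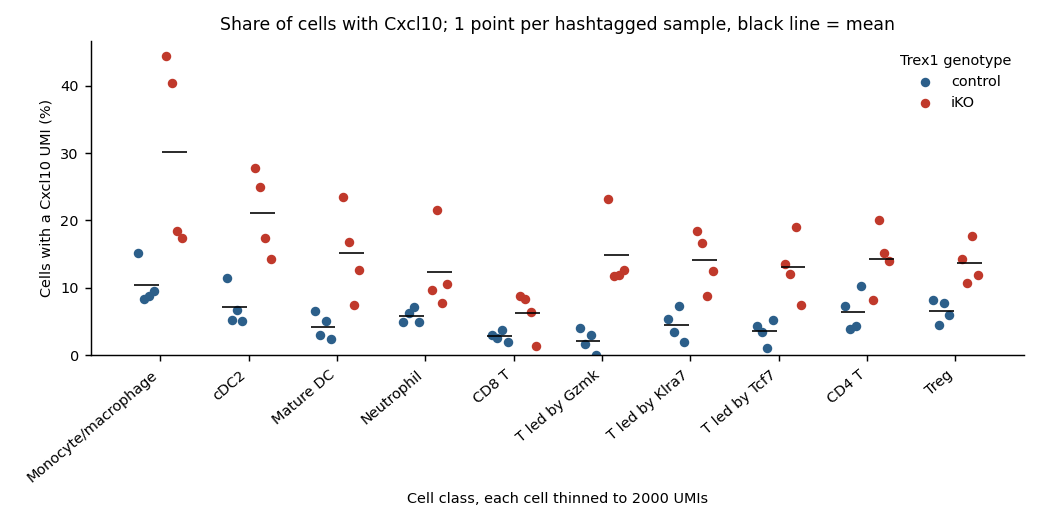
Share of cells with at least 1 Cxcl10 UMI after thinning each cell to 2000 UMIs, in percent, by class, with 1 point per sample. iKO points lie above all control points in monocyte/macrophage-like, cDC2-like, mature DC-like, neutrophil-like and Treg-like cells and in T cells led by Gzmk, Klra7 and Tcf7.

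RNA released from macrophages can enter any droplet, so macrophage transcripts were measured in the same T cells. Summed over 9 macrophage markers, T cells led by Gzmk held 303 to 434 CPM in the iKO samples and 359 to 509.8 CPM in the control samples, and CD4 T-like cells held 278 to 388 and 489 to 643 CPM. The tenth marker, Ly6c2, which activated T cells express as well, was set apart after the data were seen and stood at 1408 to 3579.8 CPM and 565 to 1461 CPM in T cells led by Gzmk. Lyz2, the lysozyme of macrophages, stood at 159 to 208 CPM and 210.0 to 319.6 CPM there. The Cxcl10 UMIs of T cells led by Gzmk were 3.10 to 16.0 times the number given by their Lyz2 UMIs and the ratio of Cxcl10 to Lyz2 over all cells of the sample in the iKO samples and 0.179 to 2.76 times in the control samples. The same ratio was 4.02 to 17.7 and 0.532 to 3.08 in CD4 T-like cells, 5.85 to 11.3 and 1.52 to 2.66 in T cells led by Klra7, 2.86 to 7.96 and 1.34 to 2.68 in those led by Tcf7, and 0.126 to 3.99 and 0.568 to 1.33 in B-like cells. In CD8 T-like and Treg-like cells the ratios of the genotypes overlapped (2.21 to 7.14 and 1.34 to 3.21; 1.13 to 14.2 and 1.30 to 10.6). The part of macrophage RNA in the T cell counts was not tested.

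Cxcr3, the receptor of CXCL9 and CXCL10, was highest in CD4 T-like cells, T cells led by Gzmk (mostly Cd8a+) and Treg-like cells, and low in the CD8 T-like class, which does not include those led by Gzmk. Its mean level over 8 samples was 178 ± 47.5 CPM (SD, n = 8) in CD4 T-like cells and 175 ± 22.3 CPM in T cells led by Gzmk, which did not differ beyond the spread (exact sign-flip permutation p = 0.945). T cells led by Gzmk were above Treg-like cells (135 ± 23.8 CPM) in 8 of 8 samples (exact p = 0.00781, adjusted 0.0859), and Treg-like cells were above T cells led by Klra7 (102 ± 23.2 CPM) in 7 of 8 (exact p = 0.0547, adjusted 0.215). T cells led by Tcf7 stood at 57.3 ± 29.6 CPM and CD8 T-like cells at 29.5 ± 34.1 CPM. CD8 T-like cells stood at 10.2, 10.8, 99.3 and 65.3 CPM across iKO samples 1 to 4 and 9.23, 5.31, 19.0 and 17.0 CPM across control samples 1 to 4. Samples iKO 3 and 4, whose CD8 T-like class held 65 and 79 cells, were far above the rest, and iKO samples 1 and 2 lay among the control samples (log2 fold change 1.60 ± 0.80, SE; adjusted p = 0.268).

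Between genotypes the Cxcr3 level did not pass the test in any class. In T cells led by Gzmk it stood at 179.6, 189, 205 and 194 CPM across iKO samples 1 to 4 and 174, 155, 169 and 135 CPM across control samples 1 to 4. All iKO samples exceeded all control samples, as 5.65% of genes in this class did, but by little (log2 fold change 0.22 ± 0.13, SE; adjusted p = 0.433; 95% interval -0.03 to 0.47). Treg-like cells stood at 158, 146, 154 and 157 CPM across iKO samples 1 to 4 and 116, 94.2, 144 and 115 CPM across control samples 1 to 4, also without overlap (4.87% of genes; log2 fold change 0.35 ± 0.14, SE; adjusted p = 0.265). In CD4 T-like cells the groups overlapped, from 141 to 243 CPM in the iKO samples and 95.1 to 220.5 CPM in the control samples (log2 fold change 0.16 ± 0.22, SE; adjusted p = 0.821; 95% interval -0.27 to 0.59). The groups overlapped as well in T cells led by Klra7 (0.29 ± 0.20, SE; adjusted p = 0.542) and by Tcf7 (0.75 ± 0.28, SE; adjusted p = 0.223). Cxcr3 passed in 0 of 7 classes tested by edgeR, and 0 by DESeq2, with 3 of 7 at an unadjusted p under 0.05. The share of thinned T cells led by Gzmk with a Cxcr3 UMI was 26.5% to 34.5% in the iKO samples and 27.0% to 41.7% in the control samples (exact permutation p = 0.6), the opposite order to the CPM, so no direction is read from it. None of the 3 genes tested in Treg-like cells passed, where 1.29% of genes did, with 1 of 3 at an unadjusted p under 0.05 and 0 by DESeq2.

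Outside T cells, Cxcr3 was found in cDC1-like and plasmacytoid (pDC-like) dendritic cells. cDC1-like cells stood at 102, 37.6, 65.3 and 56.4 CPM across iKO samples 1 to 4 and 49.8 and 38.1 CPM in control samples 3 and 4. These counts were 16.0 to 349.8 times the number given by their Cd3e UMIs and the ratio of Cxcr3 to Cd3e over all cells of the sample. pDC-like cells stood at 64.0, 57.5, 128 and 62.9 CPM in the iKO samples and 66.7 CPM in control sample 3. Neither class had enough control profiles for a test. By contrast, monocyte/macrophage-like cells held 1.40 to 1.73 CPM of Cxcr3 in the iKO samples and 1.61 to 3.86 CPM in the control samples, and 0.232% to 0.678% of their thinned cells had a UMI.

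Cxcr6, the receptor of CXCL16, was highest in CD8 T-like and CD4 T-like cells. Its CPM rose in the iKO samples in CD4 T-like cells and T cells led by Gzmk, while the thinned shares of cells with a UMI overlapped. The means of CD8 T-like (414 ± 89.1 CPM, SD, n = 8) and CD4 T-like cells (410.0 ± 97.2 CPM) did not differ beyond the spread (exact sign-flip permutation p = 0.867). CD4 T-like cells were above T cells led by Gzmk (302 ± 91.0 CPM) in 7 of 8 samples (exact p = 0.0156, adjusted 0.143). T cells led by Gzmk were above those led by Klra7 (135 ± 25.2 CPM), and these above Treg-like cells (69.5 ± 40.4 CPM), in 8 of 8 samples each (exact p = 0.00781, adjusted 0.0859). The mean was 37.9 ± 12.1 CPM in T cells led by Tcf7. Cxcr3 and Cxcr6 thus ranked the T cell classes differently, with Treg-like cells near the top for Cxcr3 and near the bottom for Cxcr6.

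For Cxcr6, T cells led by Gzmk stood at 375, 347, 332 and 450.4 CPM across iKO samples 1 to 4 and 235, 271, 172 and 230.3 CPM across control samples 1 to 4. Every iKO sample exceeded every control sample, as for 5.65% of genes in this class, with a log2 fold change of 0.71 ± 0.14 (SE; adjusted p = 0.00188). In this class 2 of the 3 genes tested passed, Cxcl10 and Cxcr6, where 4.44% of 5630 genes did. CD4 T-like cells stood at 487, 447, 436 and 573 CPM across iKO samples 1 to 4 and 366, 254, 354 and 363 CPM across control samples 1 to 4, again without overlap (4.91% of genes), and passed with a log2 fold change of 0.53 ± 0.14 (SE; adjusted p = 0.0296). That call was lost without iKO sample 1 (adjusted p = 0.0643), iKO sample 4 (0.14) or control sample 2 (0.176), over a range of 0.42 to 0.59 on the log2 scale. In CD4 T-like cells 2 of the 3 genes tested passed, Cxcl10 and Cxcr6, where 3.10% of 5702 genes did. CD8 T-like cells stood at 516, 559.9, 382 and 357 CPM across iKO samples 1 to 4 and 402, 449, 294 and 352 CPM across control samples 1 to 4. Both genotypes were high there and overlapped, with a log2 fold change of 0.32 ± 0.17 (SE; adjusted p = 0.289; 95% interval -0.01 to 0.66). None of the 4 genes tested passed in CD8 T-like cells, where 6.59% of 8937 genes did, with 1 of 4, Cxcl10, at an unadjusted p under 0.05 and 0 by DESeq2. Treg-like cells (0.60 ± 0.41, SE; adjusted p = 0.538) and T cells led by Klra7 (0.27 ± 0.18, SE; adjusted p = 0.498) and by Tcf7 (0.67 ± 0.24, SE; adjusted p = 0.2) did not pass. In the last 2 classes 1 of 3 genes tested passed, Cxcl10, where 2.00% and 2.24% of genes did. After thinning, 47.6% to 65.8% of CD8 T-like cells in the iKO samples and 41.1% to 57.7% in the control samples had a Cxcr6 UMI (exact permutation p = 0.486). In T cells led by Gzmk the thinned shares were 39.5% to 51.3% in the iKO samples and 21.2% to 41.7% in the control samples. In CD4 T-like cells they were 40.8% to 54.7% and 33.9% to 46.2%. Both pairs overlapped (exact permutation p = 0.0857, adjusted 0.234 each).

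Neutrophil-like cells also passed for Cxcr6, the 1 of 4 genes tested that did where 1.44% of genes passed. It stood at 31.7, 19.1, 11.3 and 14.8 CPM across iKO samples 1 to 4 and 3.22, 7.24, 2.44 and 4.11 CPM across control samples 1 to 4, without overlap, as for 2.29% of genes (log2 fold change 2.20 ± 0.37, SE; adjusted p = 0.00977). These levels rest on 6 to 24 UMIs per iKO sample and 3 to 10 per control sample. The 5 CD8 T markers in the same cells summed to 75.5 to 242 CPM in the iKO samples and 74.9 to 117 CPM in the control samples, with all 5 detected, and with predicted doublets kept the log2 fold change was 0.89 (adjusted p = 0.426). The call was also lost without control sample 4 (adjusted p = 0.0505), and in thinned cells Cxcr6 was too low to be tested. These Cxcr6 counts were also set against the number given by the Cd3e UMIs of the class and the ratio of Cxcr6 to Cd3e over all cells of the sample. They were 0.645 to 4.36 times that number in the iKO samples and 0.314 to 0.771 times in the control samples. The part of T cell RNA in the Cxcr6 counts of neutrophil-like cells was not tested. In monocyte/macrophage-like cells Cxcr6 stood at 5.03 to 9.67 CPM in the iKO samples and 1.75 to 4.11 CPM in the control samples, without overlap, as for 14.0% of genes (log2 fold change 1.11 ± 0.31, SE; adjusted p = 0.0512), 0.65 to 1.54 times the number given by Cd3e in the same way. DESeq2 called it (log2 fold change 1.08, adjusted p = 0.0121). That made 2 of the 5 genes called in this class by DESeq2, as were 2039 of 11796 genes. By edgeR it was 1 of the 5 and 10.9% of genes.

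Level and cell number together set where the message of each gene sat. Monocyte/macrophage-like cells held 85.8% ± 7.15 in the iKO samples and 74.0% ± 15.1 in the control samples of Cxcl9 UMIs (SD, n = 4; exact permutation p = 0.2), 89.1% ± 2.69 in the iKO samples and 76.6% ± 8.68 in the control samples of Cxcl10 UMIs (exact p = 0.0857) and 72.2% ± 10.1 in the iKO samples and 57.0% ± 14.0 in the control samples of Cxcl16 UMIs (exact p = 0.143). Mature DC-like cells, despite the highest level, held 17.2% ± 9.54 in the iKO samples and 24.1% ± 7.19 in the control samples of Cxcl16 UMIs, being few. Neutrophil-like cells held 0.618% ± 0.495 in the iKO samples and 3.96% ± 1.87 in the control samples of Cxcl10 UMIs (exact p = 0.0286, the smallest possible, adjusted 0.138 over 29 such tests), and they made up 1.45% to 6.19% of cells in the iKO samples and 10.3% to 21.4% in the control samples. For Cxcr3, CD8 T-like cells held 21.7% ± 7.42 in the iKO samples and 5.47% ± 3.01 in the control samples, without overlap (exact p = 0.0286, adjusted 0.138). CD4 T-like cells held 8.18% ± 2.46 in the iKO samples and 20.1% ± 6.72 in the control samples of Cxcr3 UMIs and T cells led by Klra7 4.32% ± 0.767 in the iKO samples and 15.3% ± 6.40 in the control samples, each lower in every iKO sample (exact p = 0.0286, adjusted 0.138). How many of all genes separated the genotypes by such shares was not counted, and class size enters them. T cells led by Klra7 made up 1.08% to 2.63% of cells in the iKO samples and 4.52% to 7.01% in the control samples. The sizes of the CD8 T-like and CD4 T-like classes overlapped between genotypes. The Cxcr6 UMIs of CD8 T-like cells were 93.5, 92.9, 44.4 and 32.7% across iKO samples 1 to 4 and 77.0, 62.3, 45.3 and 51.2% across control samples 1 to 4, so that in iKO samples 1 and 2 nearly all Cxcr6 message was in that class and in iKO samples 3 and 4 its share was under that of every control sample (exact p = 0.771).

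**Figure D4:**
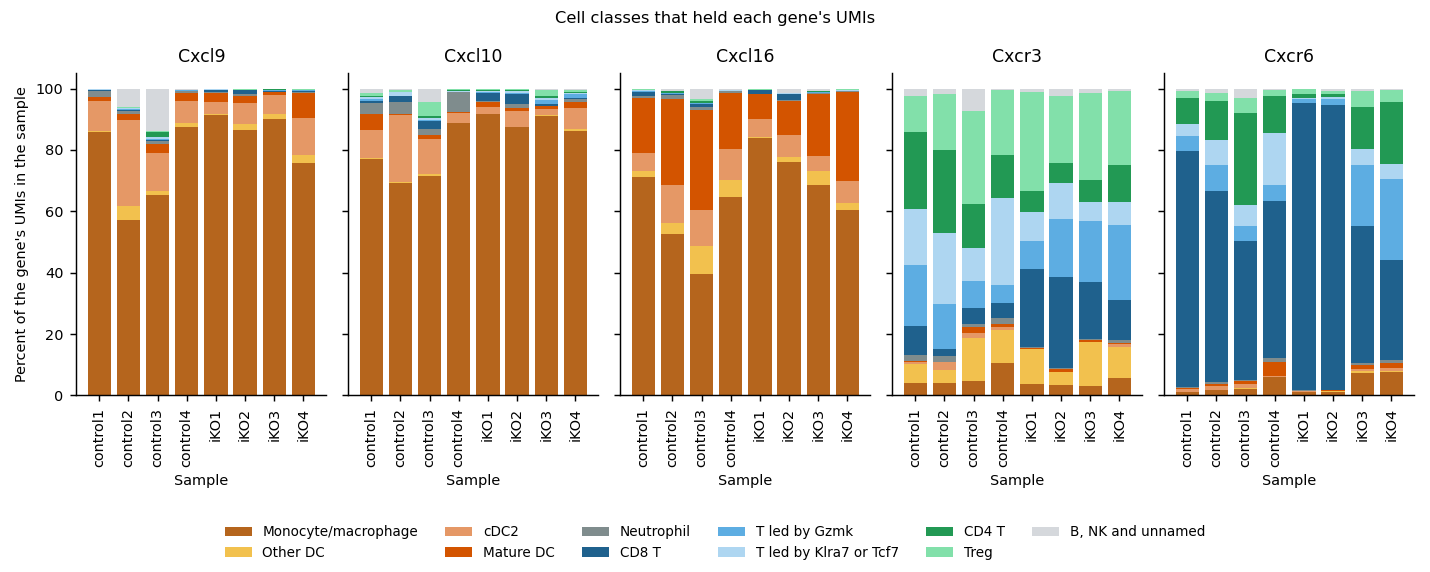
Percent of each gene's UMIs held by each class, per sample. Monocyte/macrophage-like cells held most UMIs of all 3 ligands, and the Cxcr6 share of CD8 T-like cells ran from 32.7% to 93.5% over samples.

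Among the 13 clusters of the monocyte/macrophage-like class, Cxcl9 and Cxcl10 were highest in 2 that came almost wholly from iKO samples. Clusters are described, not tested, and the 5 genes were kept out of the genes clustered. Cluster 7 held 891 iKO and 23 control cells, with a Cxcl10 level of 5099 CPM in iKO and 4906 CPM in control cells and a Cxcl9 level of 1742 and 3247 CPM. Cluster 3 held 988 iKO and 53 control cells, with Cxcl9 at 1333 and 3558 CPM, Cxcl10 at 1433 and 2450.1 CPM and Cxcl16 at 651 and 517 CPM. The few control cells of these clusters were thus close to the iKO cells in Cxcl10 in cluster 7 and above them in Cxcl9 in both clusters. Control samples with 20 cells or more numbered 1 in cluster 3 and 0 in cluster 7. Clusters 7 and 3 made up 14.8% and 16.4% of monocyte/macrophage-like cells in iKO and 0.768% and 1.77% in control. Of the 8 clusters with at least 100 cells of each genotype, Cxcl10 was higher in iKO cells in 6 and lower in 2, and Cxcl9 was higher in 3 and lower in 5. Cxcl10 was 433 CPM in iKO and 29.7 CPM in control cells of cluster 13, the widest of these differences as a ratio. Cxcl10 was 638 CPM in iKO and 218 CPM in control cells of cluster 1, 807 and 231 CPM in cluster 11 and 1217 and 264 CPM in cluster 16. Between samples with at least 20 cells, the genotypes overlapped in cluster 1 (350 to 912 and 114 to 379 CPM) and cluster 11 (185 to 1003 and 99.5 to 659 CPM). They did not overlap in clusters 13 and 16. In cluster 24, also higher in iKO cells, such samples held 43.4 to 108 CPM in iKO and 8.98 to 148 CPM in control. In all iKO and all control cells of cluster 6 Cxcl10 was 339.9 and 347 CPM, and in those of cluster 23 266 and 328 CPM. Different clusters therefore held most of the class in the 2 genotypes, and the level of the class joins cluster make-up and level within clusters.

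The CD8 T-like class was split in the same way. Cluster 0 held 35.3% of its iKO cells and 11.5% of its control cells and had the highest Cxcr6 level in both among the clusters with at least 20 cells of a genotype, 801 and 774 CPM, with Cxcr3 at 20.9 and 23.9 CPM. Cluster 22 held 7.24% of iKO and 44.8% of control cells, with Cxcr6 at 493 and 444 CPM. In cluster 32 Cxcr6 was 646 and 613 CPM while Cxcr3 was 0.653 and 2.00 CPM. The 2 Treg-like clusters differed in both receptors. In cluster 15 Cxcr3 was 179.9 and 148 CPM and Cxcr6 121 and 77.2 CPM, and in cluster 31 Cxcr3 was 99.1 and 91.7 CPM and Cxcr6 35.9 and 21.5 CPM.

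**Figure D5:**
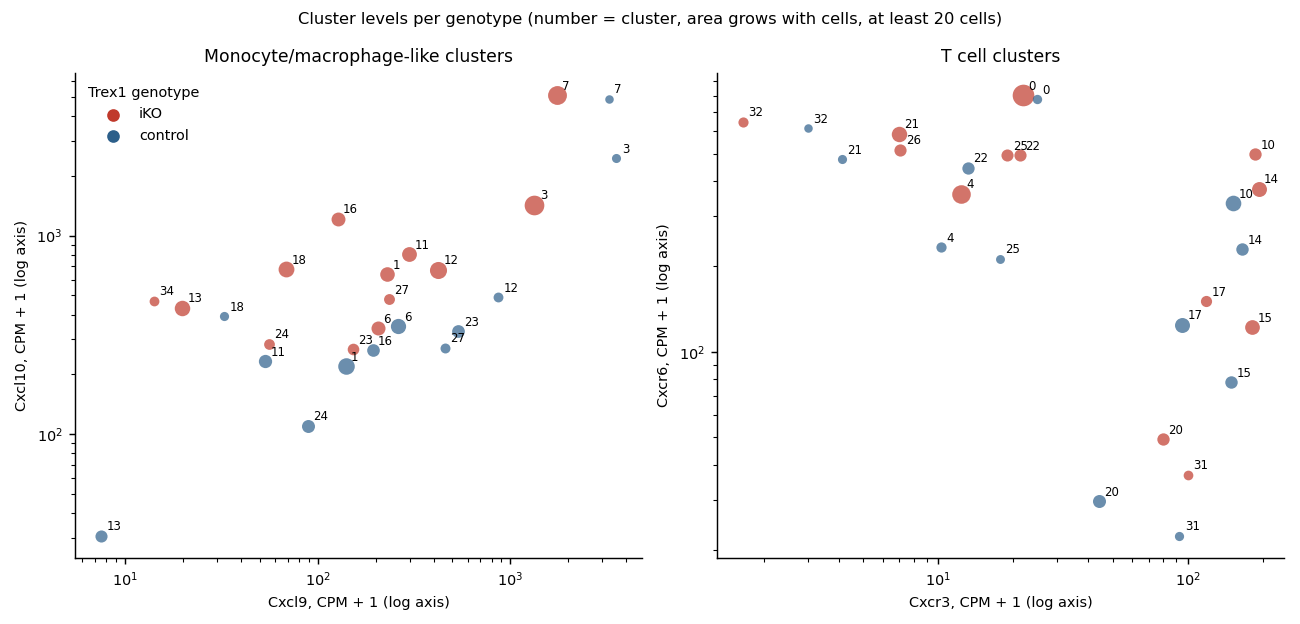
Level of ligands in the monocyte/macrophage-like clusters and of receptors in the CD8 T-like and other T cell clusters, in CPM, iKO and control cells pooled by genotype. Cluster 7 has the highest Cxcl10 level and cluster 0 the highest Cxcr6 level, in both genotypes.

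Single cells often held more than 1 ligand. Among thinned monocyte/macrophage-like cells with a Cxcl9 UMI, 34.5% to 56.2% in the iKO samples and 20.0% to 34.3% in the control samples also had a Cxcl10 UMI. Of cells without Cxcl9, 15.6% to 39.9% in the iKO samples and 7.16% to 11.4% in the control samples had one. Cxcl16 was likewise found in 36.2% to 50.3% (iKO) and 30.3% to 45.5% (control) of cells with Cxcl9, against 19.2% to 27.4% and 15.9% to 22.3% of cells without. For the receptors, 8.70% to 18.5% of T cells led by Gzmk in the iKO samples and 6.06% to 25.0% in the control samples had a UMI of both Cxcr3 and Cxcr6. Among CD8 T-like cells 39.7% to 63.8% in the iKO samples and 39.3% to 57.7% in the control samples had Cxcr6 without Cxcr3. These shares are descriptions and count detection at a fixed depth, not presence of the protein.

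Whether the genotype difference itself varied between classes was tested for 13 pairs. For Cxcl10, the log2(CPM + 1) difference was 1.62 in monocyte/macrophage-like cells, 1.01 in cDC2-like, 2.67 in mature DC-like and 0.64 in neutrophil-like cells. None of the last 3 was shown to differ from that of monocyte/macrophage-like cells (exact permutation p = 0.314, 0.457 and 0.257, adjusted 0.669 each). For Cxcr6 the effect in CD8 T-like cells, 0.27, did not differ from that in CD4 T-like cells, 0.54, by the same test (exact p = 0.457). The lowest p over the 13 pairs was 0.2, for Cxcl9 in monocyte/macrophage-like against mature DC-like cells, and the lowest adjusted p was 0.669. The smallest exact p of 4 against 4 samples is 0.0286, so a single pair could not pass after adjustment over 13. Likeness of the effects is therefore not read from this test.

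Other genes of the pathway were read from fixed lists. Among genes that encode the inducers of these ligands and their signalling, 6 of 23 tested were higher and 0 lower in monocyte/macrophage-like cells of iKO samples, with a median log2 fold change of 0.54 beside -0.01 over all genes. They included the interferon regulatory factors Irf7 (log2 fold change 2.85) and Irf9 (0.60), the signal transducer Stat2 (1.64), and the cytokines Ifng (1.56) and Il18 (0.87). Ifng was also a leading gene of clusters 21, 22 and 32 of the CD8 T-like class. The part of T cell RNA in its monocyte/macrophage-like counts was not tested. Of type I interferon response genes 15 of 17 were higher and 0 lower (median 2.07), for example Ifit3 (2.44) and Isg15 (2.39). Of interferon gamma response genes 5 of 19 were higher and 1 lower (median 1.31): Irgm1 (1.93), Tap1 (1.18), Cd40 (1.63), Igtp (1.88) and Gbp7 (1.37) rose, and H2-Aa, an MHC class II chain, fell (-0.55).

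Other chemokine ligands mostly did not follow Cxcl10 in these cells. Of 16 tested, 1 was higher, Ccl4, an inflammatory chemokine (0.79), and 5 were lower (median -0.92). The lower ones were Ccl17, a ligand of CCR4 (log2 fold change -2.97), the neutrophil-attracting Cxcl2 (-1.08) and Cxcl3 (-1.93), Ccl6 (-1.13) and Cxcl14 (-1.53). Of the other genes of the CXCR3 and CXCR6 axis, among them Adam10 and Dpp4, the peptidase that trims CXCL10, 0 of 8 passed in monocyte/macrophage-like cells. Among CD8 T-like cells 2 of the 8 did, Gnai2, the G protein subunit that chemokine receptors signal through (0.28), and Tbx21, the T-bet factor that induces Cxcr3 (0.53). Of other T cell chemokine receptors 1 of 6 was higher and 2 were lower in CD8 T-like cells, the latter being Cx3cr1 (-1.13) and Ccr1 (-0.79). In T cells led by Gzmk 0 of 5 were higher and 1 was lower, Cxcr4 (-1.41), 0 of 8 axis genes passed, and Ifng rose (0.90). The type I interferon response genes were higher in 15 of 15 tested in that class and in 14 of 14 in CD4 T-like cells. Cxcl11, the remaining CXCR3 ligand, was on the list of axis genes, and no result is given for it here.

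The genes with the most similar pattern to each member were found over 103 class-by-sample profiles of 14 classes, which share libraries, among 7816 genes, as a description. Cxcl10 was most like Ifit2 (Pearson r = 0.80 of log2(CPM + 1)), Rsad2 (0.78) and Isg15 (0.77). Cxcl9 was most like Slamf8, Cxcl16 and Ifi205 (0.80 each), and Cxcl16 like Fnbp1l, Atox1 and Bcl2a1a (0.88 each). Cxcr6 was most like Cd3g (0.91), a chain of the T cell receptor complex, Thy1 (0.90) and Trbc2 (0.90), and Cxcr3 like Pmepa1 (0.77), Leprotl1 (0.77) and Cd82 (0.76). Within the 5 genes, Cxcl9 correlated with Cxcl16 at 0.80 and with Cxcl10 at 0.63, and Cxcr3 with Cxcr6 at 0.56.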

How the data were processed

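UMI counts per gene and cell barcode, 1 matrix per hashtagged sample, were used as deposited. Per the submitters' processing notes the authors made the counts with Cell Ranger 7.1.0 on GRCm39. No source used here gives the strand and intron settings; in GENCODE, Cxcl10, Cxcl16 and Cxcr6 overlap Art3, Zmynd15 and Fyco1 on the opposite strand. Cells with at least 300 genes and at most 10% mitochondrial counts were kept (1241 barcodes removed), and 438 with a Scrublet score over 0.25 (1.95% of those scored, expected rate 0.06) were removed as doublets. With scanpy 1.11.5, 2000 variable genes, 30 principal components and 20 neighbours entered Leiden clustering (leidenalg 0.10.2, resolution 2), without the 5 genes and the listed genes, which gave 37 clusters. Clusters were called after a type, as "X-like", from marker lists, with at least 3 markers each detected in 20% of cells, and T cell clusters were split by subset markers in 60% of cells; 3 T cell clusters are called by a leading gene, those of Klra7 and Tcf7 for want of such a marker and that of Gzmk because its leading genes held more NK than CD8 T markers.

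Counts were summed per sample and class (at least 20 cells, 3 profiles per genotype), filtered with filterByExpr and tested with edgeR 4.0.16 (TMM, quasi-likelihood; R 4.3.3; Benjamini-Hochberg within each profile, threshold 0.05). The script was tested on simulated data with known fold changes. CPM are counts per 1000000 of the summed profile. Shares, sources and differences of effects were compared with exact two-sided permutation tests over samples, and neighbouring classes with exact sign-flip tests on log2(CPM + 1) (scipy 1.17.1), with Benjamini-Hochberg adjustment within each family. Wilson intervals are at 95%, and a count of 0 was given the limit of 3 counts. Alternatives were DESeq2 1.42.0, library totals, no filter, thinned cells, doublets kept, Leiden resolution 1, a pseudocount of 10, thinning to 1000 UMIs, a replicate block and leaving out each sample. Sample numbers are hashtag numbers. Same-numbered samples deviated together across genes in every pair in the summed samples (correlations 0.14 to 0.53) and in cDC2-like cells (0.10 to 0.22), where every same-number correlation was over 0.1. Some pairs of unlike number correlated more, with iKO sample 2 and control sample 1 at 0.58 and 0.25. Neither these correlations nor the labels thus single out the number as a pairing. In no other class was every same-number correlation over 0.1. CD8 T-like cells came nearest, with 0.095 to 0.31. Named were the 5 genes, genes of the lists that passed (some are not reported here), and the 3 genes most like each (mean CPM of at least 10). The members and lists were chosen with earlier results of these data known.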

Additional observations from a re-analysis of the deposited data

Results flagged for a closer look

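Among 70 groups of 4 samples examined, 4 had a sample far from the others, and chance alone gives about 1 in 20. Cxcl9 in neutrophil-like cells was 78.3 CPM in control sample 1 and 13.0 to 19.5 CPM in the other control samples. In mature DC-like cells Cxcl10 was 548 CPM in control sample 1 and 5.41 to 40.2 CPM in the others. Cxcr6 in T cells led by Klra7 was 98.5 CPM in control sample 3 and 132 to 134 CPM in the others. In CD4 T-like cells Cxcr6 was 254 CPM in control sample 2 and 354 to 366 CPM in the others.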

How the results depend on the processing

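Over all cells, Cxcl10 (1.65, adjusted p = 0.0557 in edgeR's test) passed with DESeq2 (1.65, 0.000313), no filter (1.67, 0.0487), thinned cells (1.92, 0.0227) and the replicate block (1.59, 0.00908), and over left-out samples ran from 1.37 to 1.91, passing only without iKO sample 4. In monocyte/macrophage-like cells it was 1.78 at Leiden resolution 1 (adjusted p = 0.055) and 1.48 to 2.16 without single samples. With the replicate block, in CD8 T-like cells, Cxcr3 (1.35, 0.022), Cxcr6 (0.31, 0.0402) and Cxcl10 (1.43, 0.0272) passed; so did Cxcr6 in monocyte/macrophage-like cells (1.04, 0.0205). With cDC2-like and summed-sample Cxcl10 these were the calls that the block changed among the 5 genes. Cxcr6 in monocyte/macrophage-like cells (1.11, 0.0512) also passed with DESeq2 (1.08), library totals (1.12), no filter (1.15) and doublets kept (1.31), and ran from 0.82 to 1.28 without single samples. With no filter Cxcl9 in mature DC-like (2.13) and neutrophil-like cells (1.58), Cxcl10 in neutrophil-like (1.13) and CD8 T-like cells (1.27) and Cxcr3 in T cells led by Tcf7 (0.79) passed, as did Cxcl10 in thinned mature DC-like cells (2.96). The cause was not tested for any of these.

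Directions turned as follows. Cxcr3 was -0.14 in thinned T cells led by Gzmk, and ran over left-out samples from -0.29 to 0.045 over all cells and from -0.093 to 0.28 in CD4 T-like cells; Cxcl16 in neutrophil-like cells ran from -0.40 to 0.43. Differences of effects between monocyte/macrophage-like and other cells ran from -0.17 to 0.43 (Cxcl9, cDC2-like), -0.78 to 0.52 (Cxcl9, neutrophil-like; -0.066 with a pseudocount of 10) and -0.15 to 0.26 (Cxcl16, cDC2-like). The genotype difference of the share of T cells led by Gzmk with Cxcr3 was 7.37 percentage points unthinned and -4.40 to 0.51 over left-out samples, and that of Cxcr6 UMIs in CD8 T-like cells -2.24 to 18.02.

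Genes passing over all cells numbered 340, but 1381 with DESeq2, 708 with the replicate block, 748 with thinned cells and 108 to 488 without single samples. In monocyte/macrophage-like cells they numbered 1288 (697 higher), 2039 with DESeq2, 1522 (1056 higher) with library totals and 380 to 1644 without single samples; in CD8 T-like cells 589, 207 with thinned cells and 249 to 748 without single samples; in CD4 T-like cells 177, 267 with no filter and 111 to 196 without single samples. In Treg-like cells they numbered 102, with 169 by DESeq2, 406 with no filter, 196 with the block and 12 to 318 without single samples; in cDC2-like cells 251, with 518, 476 and 139 (no filter, block, thinned) and 45 to 440; in mature DC-like cells 3, with 82 by DESeq2, 1 with library totals, 164, 29 and 23 (no filter, block, thinned) and 0 to 36. They numbered 97 in neutrophil-like cells, with 154 by DESeq2, 316 with no filter and 56 to 107 without single samples; 250 in T cells led by Gzmk, with 131 thinned; 123 in those led by Klra7, with 241, 194 and 56 (no filter, block, thinned) and 68 to 240; and 120 in those led by Tcf7, with 230, 204 and 59, 231 at Leiden resolution 1 and 56 to 179. Library totals shifted the median of all genes by over 0.1 only in neutrophil-like cells (-0.12). Small classes limit the T cell values of control sample 4 and of iKO samples 3 and 4. Control sample 4 had the fewest CD8 T-like (53), CD4 T-like (47) and Treg-like cells (36) and T cells led by Gzmk (25). Sample iKO 3 had the fewest T cells led by Klra7 (34) and by Tcf7 (42).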

Other observations

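NK-like cells, which kill without antigen receptors and can carry both receptors, had profiles in 2 samples of each genotype and were not tested. Their Cxcr3 level was 29.3 and 30.0 CPM in iKO samples 1 and 2 and 55.6 and 48.0 CPM in control samples 1 and 3. Cxcr6 stood at 53.7 and 34.5 CPM and 60.2 and 26.4 CPM in the same samples, and Cxcl10 at 261 and 69.1 CPM and 27.8 and 31.2 CPM. The iKO samples were lower than the control samples for Cxcr3 and higher for Cxcl10, and the genotypes overlapped for Cxcr6.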
